A study of Mus musculus with 12 samples.

Results

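Adrenomedullin and the genes of its receptor complex were followed through endothelial cells sorted from mouse ear skin. The set held 5 genes: Adm, which encodes the peptide, Calcrl, which encodes the calcitonin receptor-like receptor, and Ramp1, Ramp2 and Ramp3, which encode receptor activity-modifying proteins. They were taken by gene name from the platform annotation, and each of the 5 had 1 row among the 30746 genes with a row of their own. All 5 were among the 19677 genes tested. The rows were transcript clusters TC0700001630.mm.1 (Adm), TC0200003865.mm.1 (Calcrl), TC0100000886.mm.1 (Ramp1), TC1100004277.mm.1 (Ramp2) and TC1100000106.mm.1 (Ramp3).

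Affymetrix arrays were made from 4 sorted populations with 3 arrays each. The donors in all groups were C57BL6 mice with the Tg(Prox1-EGFP)KY221Gsat transgene, in which Prox1 sequences drive a green fluorescent protein in lymphatic endothelium. The series text gives their age as 5 weeks and the sample labels as adult. Lymphatic endothelial cells (LEC) carried PECAM1, podoplanin and the reporter. They were split by surface LYVE1 into capillary cells with the most LYVE1 (cap LEC), cells of pre-collecting vessels with an intermediate amount (pre-col LEC) and cells of collecting vessels with little or none (col LEC). The sorted cells of blood vessels (BEC) had PECAM1 but none of the lymphatic markers, so they mix cells of different blood vessels. The labels name the arrays biological replicates without saying whether each came from 1 mouse or from pooled mice, so the p-values measure the spread between these samples.

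Adrenomedullin is a secreted vasoactive peptide that relaxes vessels and strengthens the endothelial barrier. Its receptor is a G protein-coupled receptor that reaches the cell surface only with a RAMP partner. With RAMP2 or RAMP3 the complex binds adrenomedullin, and with RAMP1 it binds calcitonin gene-related peptide. Mouse embryos without Adm, Calcrl or Ramp2 develop oedema with malformed lymphatic vessels, which makes this pathway a known part of lymphatic growth.

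Values are log2 units after RMA, the authors' array normalization, and the median over all rows of an array lay between 6.06 and 6.17. Of the genes behind the sort, Prox1, Pdpn and Lyve1 were higher in every LEC array than in every BEC array. All 5 pan-endothelial markers examined lay above the 95th percentile of the negative control rows on every array. Mural markers, genes of the contractile cells around vessels, were higher in BEC, with a summed level over 10 genes of 12.96 to 13.32 against 10.12 to 12.05 on the LEC arrays. The highest LEC values for mural and fibroblast markers, 12.05 and 11.67, were both on pre-col LEC replicate 1. On the LEC arrays 0 of 10 mural markers lay above the 95th percentile of the negative controls on all arrays of a group, against 5 of 10 in BEC.

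The ligand gene was the member that separated the lymphatic segments. Adm was highest in collecting vessel cells, intermediate in pre-collecting cells and lowest in capillary cells, and col LEC also exceeded BEC. On the single arrays Adm was at 10.50, 10.49 and 10.71 in cap LEC and at 11.31, 11.38 and 10.84 in pre-col LEC. The col LEC arrays gave 12.65, 12.19 and 12.22, and the BEC arrays 10.68, 10.94 and 10.72. The 3 col LEC arrays lay above all others, the pre-col LEC arrays lay between cap and col LEC without overlap, and BEC overlapped with cap LEC and with the lowest pre-col LEC array. The summed level of 6 blood endothelial markers stepped in the same order over LEC without overlap, at 11.66 to 11.78 in cap, 11.80 to 11.92 in pre-col and 11.95 to 12.30 in col LEC, with 13.92 to 14.07 in BEC. This sum is of unlogged values, so bright genes weigh most. The mean log2 value of the same 6 genes overlapped, at 7.94 to 8.15 in cap, 8.13 to 8.57 in pre-col and 8.30 to 8.43 in col LEC. Plvap and Emcn stepped in the order of Adm, whereas Flt1, Cd34 and Sox17 had their highest LEC mean in pre-col LEC. The sum and the mean also include Vwf, whose values are not given here. Col LEC replicate 1, the array with the most Adm, also had the most fibroblast RNA of its group, with a summed level of 10.82 over 6 genes against 9.62 and 9.68. Without that array Adm was higher in col than in cap LEC by 1.64 and than in BEC by 1.43, and both calls held. The part of blood endothelial markers in the Adm order was not tested. An array averages a whole sort gate, so more cells with Adm RNA and more Adm RNA per cell cannot be told apart.

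Mean Adm was 12.35 ± 0.26 in col LEC, 11.18 ± 0.29 in pre-col LEC, 10.78 ± 0.14 in BEC and 10.57 ± 0.12 in cap LEC (SD over 3 arrays each). Errors beside differences are limma's moderated standard errors (SE), brackets give 95% intervals, and calls were made at a Benjamini-Hochberg adjusted p under 0.05. Adm was higher in col than in cap LEC by 1.79 ± 0.16 on the log2 scale, which is 3.45-fold (2.72 to 4.38, adjusted p = 0.000127). Only 10 of the 19677 genes tested had a larger positive difference there. Between col and pre-col LEC Adm differed by 1.18 ± 0.16, which is 2.26-fold (1.78 to 2.87, adjusted p = 0.00965). That call ended when only the 2 groups compared were fitted (adjusted p = 0.142, same difference). Between col LEC and BEC Adm differed by 1.57 ± 0.16, which is 2.98-fold (2.34 to 3.78, adjusted p = 1.64e-05).

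The lower steps of the Adm order did not pass the test. Pre-col LEC exceeded cap LEC by 0.61 ± 0.16 (0.27 to 0.96, adjusted p = 0.501) and BEC by 0.40 ± 0.16 (0.05 to 0.74, adjusted p = 0.127). The second difference reached 0.57 with adjusted p = 0.0248 without pre-col LEC replicate 3, the lowest of its group. Cap LEC minus BEC was -0.21 ± 0.16 (-0.56 to 0.13, adjusted p = 0.351). Without pre-col LEC replicate 1, which carried the most mural and fibroblast RNA, the pre-col minus cap LEC difference was 0.55 and col minus pre-col LEC was 1.24 (adjusted p = 0.0292). Of the 5 members, limma called Adm alone between col and cap LEC and between col and pre-col LEC, against 1.64% and 0.3% of all genes tested. Between pre-col and cap LEC it called 0 members and 0% of all genes. There 1257 genes (6.39% of those tested), Adm among them, had an unadjusted limma p under 0.05. That share is little above the one that this threshold passes without any difference. Non-overlap alone was common: 1 member (Adm) did not overlap in each of these comparisons, and the groups did not overlap for 20.8%, 14.2% and 11.3% of all genes in these comparisons, in the order col against cap, pre-col against cap and col against pre-col LEC.

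**Figure D1:**
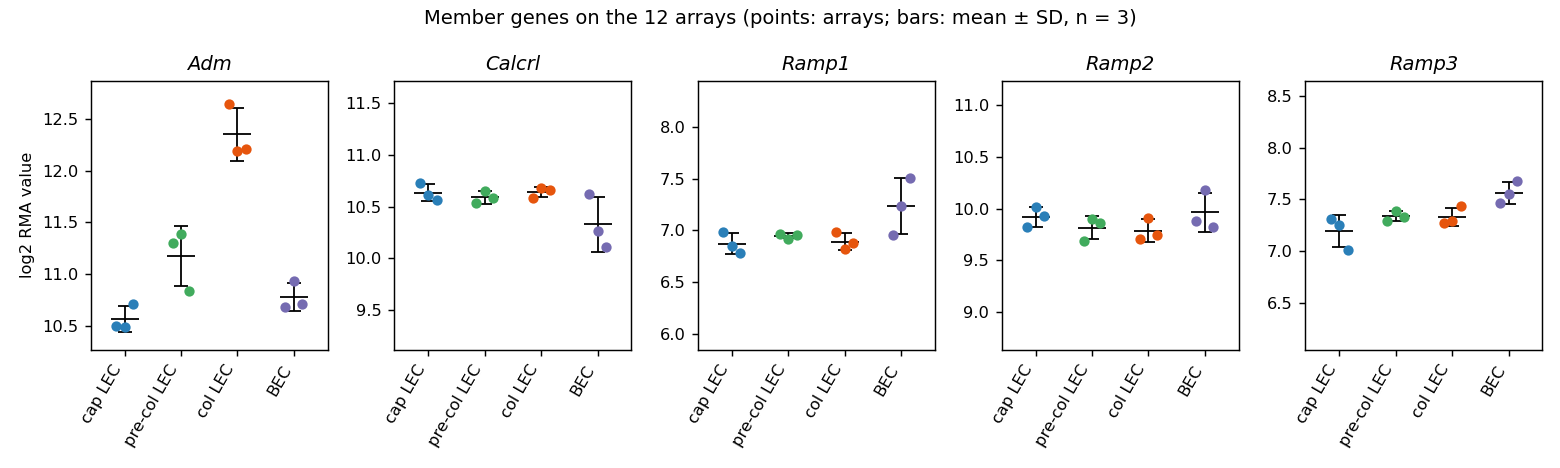
Log2 RMA values (y axis, each panel spanning the same range of units around its own gene) of the 5 members in the 4 cell populations (x axis); points are arrays and bars the mean ± SD of 3. Adm steps from a mean of 10.57 in cap LEC to 12.35 in col LEC while the other panels stay nearly level across LEC, and panels are not to be read against each other because every transcript cluster has its own probes.

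The promoter of Adm, whose RNA differed between the lymphatic groups, is shown beside that of Calcrl, whose RNA was nearly level. The sequences are the 250 bases before the annotated start of each gene from RefSeq on GRCm38.p6, with Adm at chr7:110627407-110627656 on the plus strand and Calcrl at chr2:84425267-84425516 on the minus strand. Of the 5 members, 4 matched the RefSeq promoter table (Adm, Calcrl, Ramp1 and Ramp3). Capitals mark matches on either strand to the hypoxia response core ACGTG, its variant GCGTG, the cAMP response element TGACGTCA and the TATA box letters TATAA.
Adm: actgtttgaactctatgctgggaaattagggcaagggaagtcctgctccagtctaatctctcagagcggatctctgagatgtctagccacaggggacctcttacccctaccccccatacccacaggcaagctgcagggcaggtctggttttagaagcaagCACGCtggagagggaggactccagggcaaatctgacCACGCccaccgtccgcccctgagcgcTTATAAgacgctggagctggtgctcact
Calcrl: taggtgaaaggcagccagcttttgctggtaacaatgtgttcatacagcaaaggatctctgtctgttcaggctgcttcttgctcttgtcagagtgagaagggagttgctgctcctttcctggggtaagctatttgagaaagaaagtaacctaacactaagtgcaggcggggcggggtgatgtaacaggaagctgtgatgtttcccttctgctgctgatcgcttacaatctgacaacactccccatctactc
In the Adm window GCGTG matched on the opposite strand at 90 and 54 bases before the start, where it reads CACGC. The TATA box letters matched on both strands at overlapping positions 28 and 27 bases before the start. Of 32851 windows of this length, 28.2% held GCGTG, 16.6% held ACGTG, 38.6% held at least 1 of these cores, 22.8% held TATAA and 1.55% held TGACGTCA. The Calcrl and Ramp1 windows held none of these letter strings and the Ramp3 window held GCGTG at 219 and 65 bases before the start. These are letter matches in a short window and do not show that a factor binds.

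Calcrl, the receptor itself, was nearly level across lymphatic endothelium. The cap LEC arrays gave 10.73, 10.62 and 10.57, the pre-col LEC arrays 10.53, 10.66 and 10.59, and the col LEC arrays 10.59, 10.68 and 10.66. In BEC the values were 10.62, 10.26 and 10.11, so that 1 BEC array lay among the LEC arrays and the other two below them. The group means were 10.64 ± 0.08, 10.59 ± 0.06, 10.64 ± 0.05 and 10.33 ± 0.27 in that order (SD, n = 3). Col minus cap LEC was 0.0054 with an interval of -0.25 to 0.26, whose upper end lies below the interval of Adm in the same comparison (1.44 to 2.13). The range of Calcrl means over the 3 LEC groups, 0.051, was smaller than that of all but 9.62% of genes tested, whereas the Adm range of 1.79 exceeded that of 99.9%.

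Against BEC, Calcrl was higher by 0.31 ± 0.12 in cap LEC (adjusted p = 0.0826), 0.26 ± 0.12 in pre-col LEC (adjusted p = 0.176) and 0.31 ± 0.12 in col LEC (adjusted p = 0.0967). None of these passed the test on all 12 arrays. Without BEC replicate 1, the BEC array that lay among the LEC arrays, all 3 did, at 0.45 (adjusted p = 0.00347), 0.41 (adjusted p = 0.00754) and 0.46 (adjusted p = 0.00363). That array also had the most RNA of lymphatic markers within BEC, with a summed level of 10.58 over 5 genes against 10.18 and 10.40 in BEC replicates 2 and 3. Its mural level was 13.32 against 13.27 and 12.96. The part of either in the result was not tested.

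Ramp2, the partner that makes Calcrl an adrenomedullin receptor, was nearly level over all 4 populations. The arrays gave 9.82, 10.02 and 9.93 for cap LEC, 9.69, 9.90 and 9.86 for pre-col LEC, 9.71, 9.91 and 9.74 for col LEC, and 9.88, 10.18 and 9.82 for BEC. The values of every pair of groups overlapped. Means ran from 9.79 ± 0.11 in col LEC to 9.96 ± 0.19 in BEC, a range of 0.18 against a median range of 0.24 over all genes tested. The largest difference, col LEC minus BEC, was -0.18 ± 0.11 (-0.41 to 0.06, adjusted p = 0.338). Col minus cap LEC was -0.14 with an interval of -0.37 to 0.10, whose upper end lies below the interval of Adm there.

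Ramp3 and Ramp1 were dim on these arrays. Ramp3, the alternative partner for adrenomedullin, lay above 69.4% to 84.2% of negative control rows, and Ramp1, the partner for calcitonin gene-related peptide, above 66.0% to 82.1%. By the same measure Adm lay above at least 98.3%, Calcrl above 98.1% and Ramp2 above 96.7% on every array. RMA compresses differences of dim rows, so the differences below may understate the change. Other dim receptor genes were also mostly lower in LEC than in BEC. For 11 other tested receptors of the class B family, to which Calcrl belongs, the medians were -0.26 in cap, -0.19 in pre-col and -0.15 in col LEC minus BEC. Of these, 0, 0 and 1 lay above 0. Whether Ramp3 and Ramp1 differed from BEC by more than other dim rows was not tested.

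Ramp3 gave 7.46, 7.55 and 7.68 on the BEC arrays, 7.31, 7.25 and 7.01 on those of cap LEC, 7.29, 7.39 and 7.33 on those of pre-col LEC, and 7.27, 7.29 and 7.43 on those of col LEC. All BEC arrays lay above all LEC arrays, by a narrow gap over the highest col LEC array. Ramp3 was lower in cap LEC than in BEC by a log2 difference of -0.37 ± 0.10 (-0.58 to -0.16, adjusted p = 0.016). In pre-col and col LEC it was lower than in BEC by -0.22 ± 0.10 (adjusted p = 0.156) and -0.23 ± 0.10 (adjusted p = 0.135), which did not pass the test. The cap LEC call ended with cap LEC replicate 3 left out (-0.28, adjusted p = 0.066), with BEC replicate 3 left out (-0.31, adjusted p = 0.0588) and when only cap LEC and BEC were fitted (adjusted p = 0.0678). Among LEC groups Ramp3 means spanned 7.19 ± 0.16 to 7.34 ± 0.05 (SD, n = 3), with col minus cap LEC at 0.14 (-0.07 to 0.34, adjusted p = 0.672).

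Ramp1 gave 6.96, 7.23 and 7.51 on the BEC arrays, 6.98, 6.84 and 6.78 on those of cap LEC, 6.96, 6.92 and 6.96 on those of pre-col LEC, and 6.98, 6.81 and 6.88 on those of col LEC. BEC replicate 1 lay among the LEC arrays and the other two BEC arrays above them. The differences from BEC were -0.36 ± 0.12 for cap LEC (adjusted p = 0.0513), -0.29 ± 0.12 for pre-col LEC (adjusted p = 0.149) and -0.34 ± 0.12 for col LEC (adjusted p = 0.0797). Without BEC replicate 1 all 3 passed the test, at -0.50 (adjusted p = 0.00512), -0.43 (adjusted p = 0.0149) and -0.48 (adjusted p = 0.00732). Mural RNA was higher in BEC, as given above, and its part in the Ramp1 differences was not tested. Between LEC groups Ramp1 differed by at most 0.076 (pre-col minus cap LEC, -0.19 to 0.34).

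Across the 3 comparisons with BEC, limma called 1 of 5 members in cap LEC (Ramp3), 0 in pre-col LEC and 1 in col LEC (Adm). The shares of all genes tested that it called were 20.7%, 15.5% and 16.2%, so these counts are near or below that background. The groups did not overlap for 1 member in cap LEC and 1 in pre-col LEC (Ramp3) and for 2 in col LEC (Ramp3 and Adm), against 37.8%, 28.6% and 30.3% of all genes. Without BEC replicate 1 the calls numbered 3, 2 and 3 members, in fits that called 3897, 3130 and 3262 genes of all tested against 4073, 3053 and 3196 with it.

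**Figure D2:**
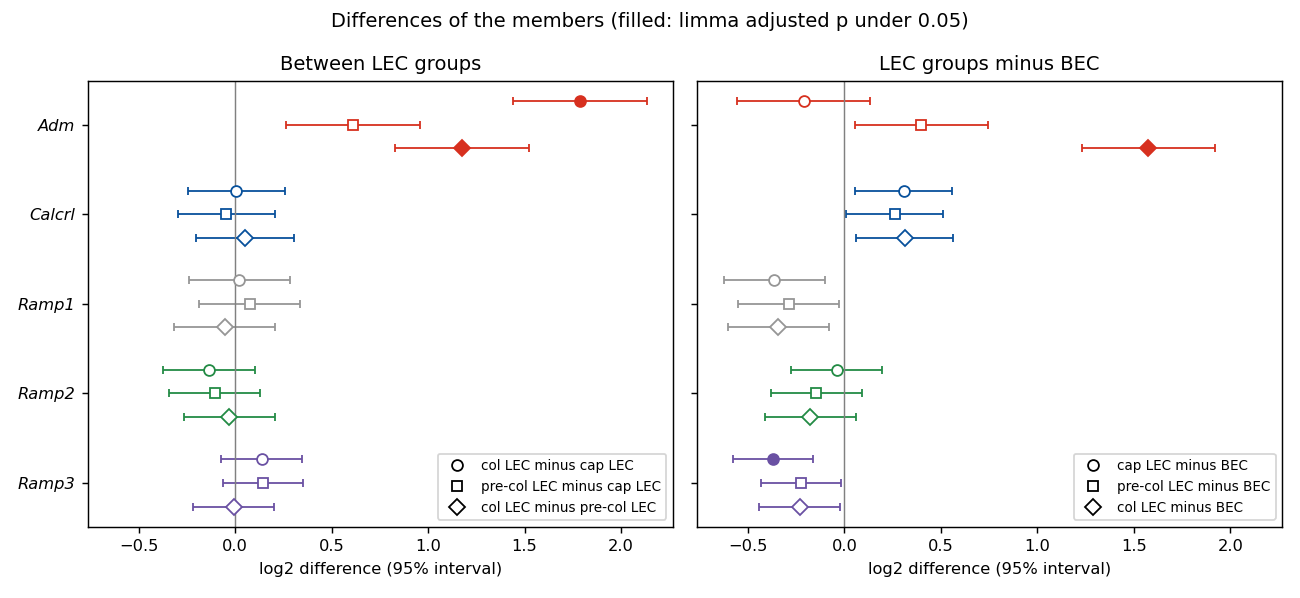
Differences of group means in log2 units (x axis) with 95% intervals for the 5 members (y axis), between LEC groups on the left and LEC groups minus BEC on the right; filled symbols mark calls. The 3 filled Adm symbols, at 1.79, 1.18 and 1.57, stand apart from the receptor genes, whose intervals all include 0 on the left.

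Related peptides and receptors showed how far the pattern of Adm extended. Of the other calcitonin family peptides, Adm2 (intermedin, which also acts through Calcrl) had group means of 6.67 to 6.81 and was not called (col minus cap LEC 0.15 ± 0.10, adjusted p = 0.675). Calcb, a gene for calcitonin gene-related peptide, and Iapp, the amylin gene, lay at group means of 5.73 to 5.82 and 3.94 to 4.09, below the filter on dim genes, and so did the calcitonin receptor gene Calcr at 5.74 to 5.86. Calca, the remaining peptide gene of the list, had no row of its own and was not followed. Ackr3, an atypical receptor that takes up adrenomedullin and the chemokine CXCL12 without signalling through G proteins, was lowest in col LEC among the LEC groups, where Adm was highest, and was lowest of all in BEC, where Adm was also low. Its means were 7.68 ± 0.19 in BEC, 7.98 ± 0.22 in col LEC, 8.57 ± 0.37 in pre-col LEC and 8.74 ± 0.07 in cap LEC (SD, n = 3). Ackr3 was lower in col than in cap LEC by -0.77 ± 0.17 (adjusted p = 0.0496), a call lost in 13 of 21 alternative fits, 9 of which left out 1 array (at most adjusted p = 0.193, at -0.66, with col LEC replicate 1 left out). Against BEC it was higher by 1.06 ± 0.17 in cap LEC (adjusted p = 0.000725) and 0.89 ± 0.17 in pre-col LEC (adjusted p = 0.00302).

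Gpr182, a receptor of endothelium that was once assigned to adrenomedullin and binds chemokines, had a mean of 7.58 ± 0.13 in BEC and of 8.27 ± 0.23 in cap, 8.06 ± 0.17 in pre-col and 8.16 ± 0.19 in col LEC. It was called higher than in BEC in all 3, by 0.69 (adjusted p = 0.00323), 0.48 (adjusted p = 0.0333) and 0.59 (adjusted p = 0.0108). The pre-col LEC call was lost in 5 of 21 alternative fits (highest adjusted p = 0.122, without pre-col LEC replicate 2, at 0.41). Crcp, a cytoplasmic protein linked to receptor signalling, passed the test in pre-col LEC minus BEC alone (0.39 ± 0.12, adjusted p = 0.0457) and lost that call in 16 of 21 fits (highest adjusted p = 0.163, without pre-col LEC replicate 3, at 0.34).

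Among 5 tested genes for making or degrading the peptide, Mmp2, a gelatinase that cleaves adrenomedullin, had group means in the order of those of Ackr3. For both genes the differences between cap and pre-col LEC and between col LEC and BEC were not called. Mmp2 had a mean of 8.92 ± 0.19 in BEC and of 9.76 ± 0.13 in cap, 9.65 ± 0.17 in pre-col and 8.96 ± 0.13 in col LEC. It was lower in col than in cap LEC by -0.79 ± 0.12 (adjusted p = 0.00608) and than in pre-col LEC by -0.69 ± 0.12 (adjusted p = 0.0468). The second call was lost in 14 of 21 alternative fits (at most adjusted p = 0.197, at -0.61, with col LEC replicate 2 left out). Against BEC Mmp2 was higher by 0.84 in cap and 0.73 in pre-col LEC, and both calls held in all 21 alternative fits. Pam, the enzyme that amidates adrenomedullin into its active form, was at 9.90 to 10.09 in all 4 groups and was not called. Ide, the insulin-degrading enzyme, exceeded its BEC level by 0.69 in cap, 0.58 in pre-col and 0.55 in col LEC (adjusted p = 3.51e-05, 0.000175 and 0.000284). Ece1, the endothelin-converting enzyme, was higher than in BEC in cap LEC by 0.57 (adjusted p = 0.000781) and in pre-col LEC by 0.37 (adjusted p = 0.0158), the latter lost in 4 of 21 fits (at most adjusted p = 0.125, at 0.26, after cyclic loess). Mme, the peptidase neprilysin, lay at 4.28 to 4.84, below the filter.

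**Figure D3:**
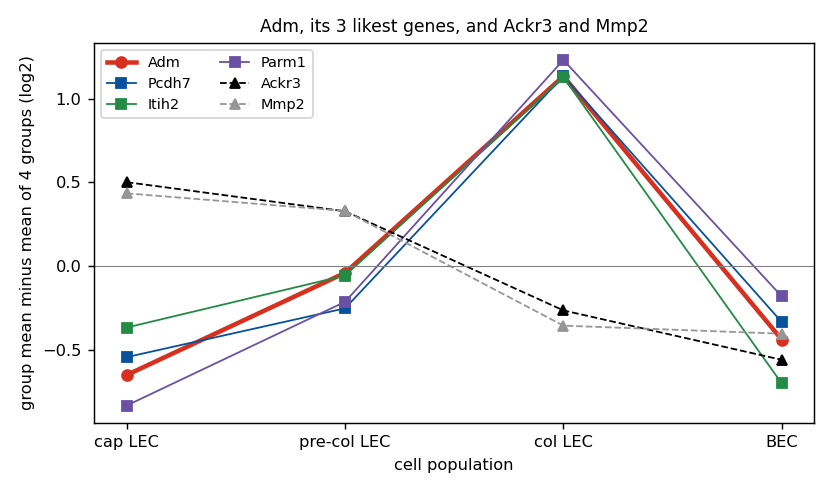
Group means of Adm, of the 3 genes whose profile was closest to it and of Ackr3 and Mmp2, each minus its own mean over the 4 groups (y axis, log2 units), by cell population (x axis). Adm and its closest genes peak in col LEC, where Ackr3 and Mmp2 lie below their cap and pre-col LEC levels.

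The genes most like Adm were sought among 13825 tested genes by the root mean square difference of 12 array values, each gene centred on its own mean. The closest were Pcdh7, a protocadherin, at 0.22 log2 units, Itih2, a hyaluronan-binding plasma protein gene, at 0.24, and Parm1, a mucin-like membrane protein gene, at 0.27, against a median of 0.73 over the genes compared. Their means in col against cap LEC were 8.39 ± 0.07 and 6.71 ± 0.11 for Pcdh7, 8.48 ± 0.29 and 6.98 ± 0.11 for Itih2, and 9.98 ± 0.14 and 7.91 ± 0.03 for Parm1 (SD, n = 3). Unlike Adm, whose mean in BEC lay above that in cap LEC by 0.21, Itih2 was lower in BEC (6.65 ± 0.04) than in cap LEC (6.98 ± 0.11). None of the 4 receptor genes had group means spanning 1 log2 unit, so no closest genes were sought for them.

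Downstream of the receptor, 2 of 31 tested genes of the stimulatory G protein, cAMP and protein kinase A passed the test between col and cap LEC, and 0 in each of the other comparisons between LEC groups. The shares of all genes called were 1.64% in col minus cap, 0% in pre-col minus cap and 0.3% in col minus pre-col LEC. Pde2a, a phosphodiesterase that breaks down cAMP and cGMP, was higher in col than in cap LEC by 0.52 ± 0.09 (adjusted p = 0.0106), and Akap12, a scaffold for protein kinase A, was lower by -0.63 ± 0.11 (adjusted p = 0.0125). Larger differences that did not pass were those of Pde7b, a cAMP phosphodiesterase (-0.81 ± 0.26, adjusted p = 0.215), and Prkar2b, a regulatory subunit of protein kinase A (-0.71 ± 0.18, adjusted p = 0.097). In neither did the groups overlap, which held for 20.8% of all genes tested in that comparison. The median of the 31 genes was -0.0094 against 0.026 over all genes tested. These calls were lost in 2 of 21 fits for Pde2a (highest adjusted p = 0.0597) and in 4 for Akap12 (highest adjusted p = 0.0602). Gnas, the stimulatory G protein itself, ran from 9.25 to 9.43 over the group means and was not called in any comparison.

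Against BEC the same genes differed in both directions. In cap LEC minus BEC 6 were higher and 8 lower, in pre-col LEC 7 and 8, and in col LEC 6 and 6, with medians of -0.0063, -0.077 and -0.071. The shares of all genes called in these comparisons were 20.7%, 15.5% and 16.2%. Pde3b, a phosphodiesterase that breaks down cAMP, was higher in LEC by 2.32 ± 0.14 in cap, 2.01 ± 0.14 in pre-col and 1.95 ± 0.14 in col LEC. Rapgef3, the cAMP-activated exchange factor EPAC, was lower by -1.95 ± 0.11, -1.76 ± 0.11 and -1.67 ± 0.11, and the mean of Pde2a was 11.53 ± 0.11 in BEC against 9.62 ± 0.10, 9.66 ± 0.11 and 10.13 ± 0.03 (SD, n = 3). The adjusted p was at most 6.73e-07 for each of these differences of Pde3b, Rapgef3 and Pde2a. Pde3a, a related phosphodiesterase, was lower by -1.53, -1.10 and -1.44. It was dim in LEC, with means of 6.09 in cap, 6.52 in pre-col and 6.18 in col LEC. The array medians over all rows were 6.06 to 6.17. Its pre-col LEC arrays ranged from 5.99 to 7.32, and the pre-col LEC call ended without replicate 2 (-0.97, adjusted p = 0.0528) and with only these groups fitted (adjusted p = 0.0601). Mural markers moved with BEC, as given above, and their part in these differences was not tested. Pde7b was higher by 1.68, 1.44 and 0.87, the last lost in 13 of 21 fits (at most adjusted p = 0.167, at 0.71, with BEC replicate 3 left out).

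Of 8 tested genes for desensitisation and trafficking of receptors, 0 were called between LEC groups, in comparisons that called 0% to 1.64% of all genes. In cap LEC minus BEC 3 were higher and 1 lower, and in pre-col and col LEC 2 were higher and 1 lower, against 20.7%, 15.5% and 16.2% of all genes called. Rab11a, a recycling GTPase, was higher by 0.83 in cap, 0.73 in pre-col and 0.78 in col LEC, and the receptor kinase gene Grk5 by 0.59, 0.49 and 0.53. Arrb1, an arrestin that turns receptors off, was higher in cap LEC by 0.48 ± 0.14 (adjusted p = 0.0261), a call lost in 5 of 21 fits (highest adjusted p = 0.109, after cyclic loess). Slc9a3r1, which encodes the scaffold NHERF that binds RAMP3, was lower than in BEC by -0.63, -0.51 and -0.39 (adjusted p = 0.00135, 0.00653 and 0.028), the last lost in 5 of 21 fits (at most adjusted p = 0.117, at -0.34, with col LEC replicate 3 left out). Ramp3 itself had the same sign in these comparisons.

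Adm is a known target of hypoxia-inducible factors, and 9 genes of oxygen sensing were followed for that reason. Between LEC groups 0 of 9 were called, in comparisons that called 0% to 1.64% of all genes. The medians of the 9 genes were -0.038 in col minus cap, -0.11 in pre-col minus cap and 0.096 in col minus pre-col LEC. Over all genes tested these medians were 0.026, 0.0017 and 0.018. Hif1a was at 8.94 ± 0.07 in cap, 8.89 ± 0.04 in pre-col and 9.11 ± 0.04 in col LEC, and Epas1 at 11.97 ± 0.03, 11.90 ± 0.08 and 11.86 ± 0.12 (SD, n = 3). Both factors were higher in BEC, at 9.61 ± 0.26 and 13.10 ± 0.08. Against BEC 1 of the 9 genes was higher and 2 were lower in cap LEC. In pre-col and in col LEC 1 was higher and 3 were lower. The shares of all genes called there were 20.7%, 15.5% and 16.2%. The part of oxygen sensing in the Adm differences was not tested. The col LEC call of Hif1a ended when only col LEC and BEC were fitted (adjusted p = 0.0523). Egln3, an oxygen-dependent hydroxylase that marks these factors for breakdown, exceeded its BEC level by 2.23 in cap, 2.03 in pre-col and 2.36 in col LEC (adjusted p = 2.49e-08, 6.21e-08 and 1.74e-08). Egln1, also of this list, went the other way and was lower than in BEC by -0.66 in pre-col and -0.57 in col LEC. Both Egln1 calls held in all 21 alternative fits.

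Immediate early genes, which cells switch on within minutes of stimulation or handling, were examined as a list added with earlier results known. Of 22 tested, 0 were called between LEC groups, in comparisons that called 0% to 1.64% of all genes. In col minus cap LEC 19 of the 22 were above 0, with a median of 0.24 against 0.026 over all genes. Their summed level was 15.05 to 15.32 in pre-col LEC, 15.21 to 15.42 in cap LEC, 15.31 to 15.46 in col LEC and 15.33 to 15.52 in BEC. Against BEC 1 was higher and 9 lower in cap LEC, 0 and 7 in pre-col LEC and 0 and 4 in col LEC, with medians of -0.39, -0.35 and -0.14, where 20.7%, 15.5% and 16.2% of all genes were called. Their part in the Adm difference was not tested.

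Adrenomedullin acts on endothelial junctions, and 6 such genes were tested. Between LEC groups 0 of 6 were called, in comparisons that called 0% to 1.64% of all genes. Cdh5, the adherens junction cadherin, was at 12.73 in each LEC group and at 13.17 ± 0.11 in BEC. Gja1, the connexin that adrenomedullin acts on in lymphatic endothelium, was at 8.84 ± 0.34 in BEC, 8.52 ± 0.12 in cap, 8.55 ± 0.11 in pre-col and 8.78 ± 0.07 in col LEC and was not called (col minus cap LEC 0.27, adjusted p = 0.562). Against BEC 2 of 6 were higher and 3 lower in each LEC group, where 20.7%, 15.5% and 16.2% of all genes were called: Cldn5 was higher by 1.04, 0.96 and 1.07, and F11r by 0.58, 0.41 and 0.39, while Esam was lower by -2.79, -2.38 and -2.28, Tjp1 by -0.64, -0.54 and -0.50, and Cdh5 by -0.44, -0.44 and -0.45. The F11r calls in pre-col and col LEC were lost in 7 and 12 of 21 fits (at most adjusted p = 0.127 and 0.148).

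Over the 8 lists together, which include the members, 79 of 97 listed genes were tested. In col minus cap LEC 2 were higher and 3 lower (6.33%, against 1.64% of all genes tested), and in col minus pre-col LEC 1 was higher and 1 lower (2.53%, against 0.3% of all genes). In the differences of cap, pre-col and col LEC from BEC, 44.3%, 43.0% and 35.4% were called, against 20.7%, 15.5% and 16.2% of all genes. The lists were chosen with earlier results of these data known, so these shares describe the lists and do not test for enrichment. Some of the calls were lost in other fits, as given above.

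**Figure D4:**
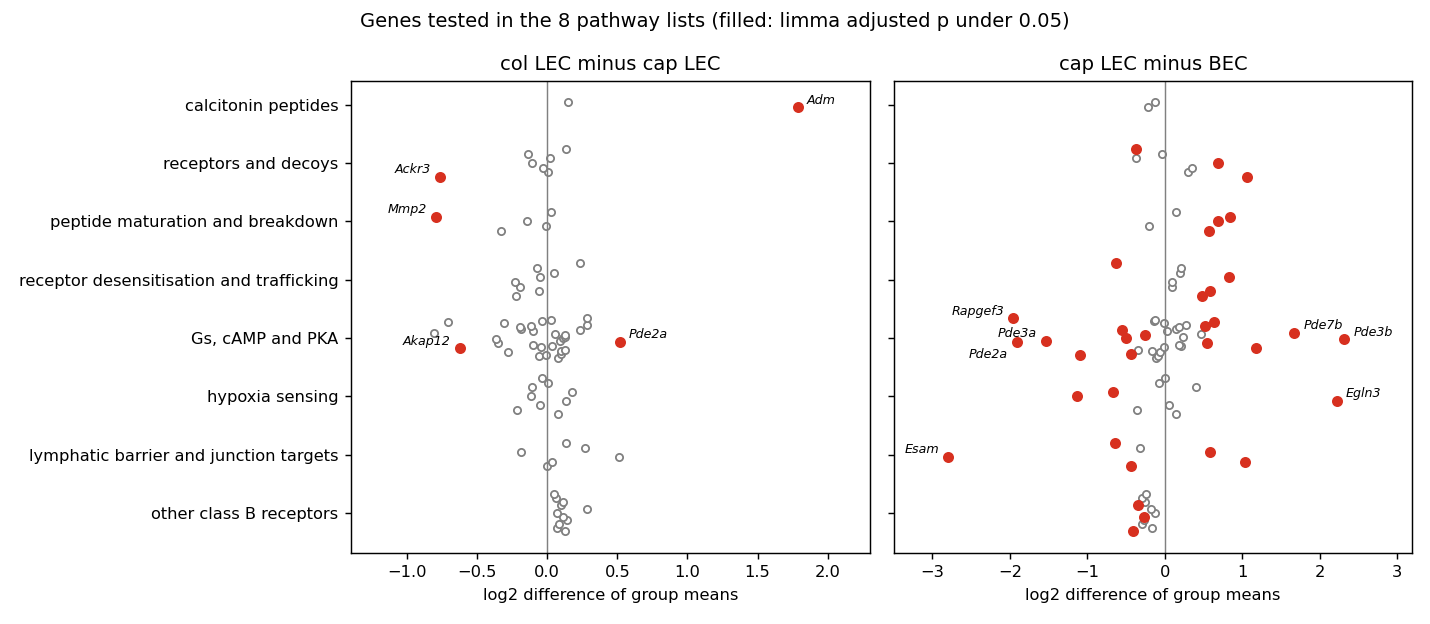
Differences of group means in log2 units (x axis) of each gene tested in the 8 lists (y axis) for col LEC minus cap LEC and cap LEC minus BEC; filled points mark calls, and names are given for all of them on the left and beyond 1.5 units on the right. Adm, at 1.79, lies apart on the left, with 4 other genes called (Ackr3, Mmp2, Akap12 and Pde2a), and on the right calls of 5 lists lie on both sides of 0.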

How the data were processed

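RNA of 500 pg per sample was amplified and labelled for whole-transcript Affymetrix arrays, as the labels' protocols state. The 12 columns analysed hold log2 probe set values deposited by the authors after RMA, per the submitters' processing notes; the software and genome build were not given in the sources used here. Amplifying so little RNA adds noise to weak rows, and RMA hides changes in total RNA. Of 72688 rows, 30604 had 1 symbol, 2146 several and 33206 transcript clusters none; 615 rows with several symbols named 1 gene. Symbols were updated through RefSeq (GRCm38.p6). Each gene was its brightest row, and genes above the array's median on at least 3 arrays were tested with limma 3.58.1 (R 4.3.3; lmFit on 12 arrays, eBayes, two-sided, Benjamini-Hochberg over 19677 genes), after a check on simulated data. The median SD within groups was 0.141. The number of arrays limits the precision. Plots used matplotlib 3.10.9. Members and lists were chosen with earlier results of these data known. Named were all members, all calcitonin peptides and receptors with a row, and up to 6 called genes of each other list by size. Named too were the 3 genes closest to a member spanning at least 1 log2 unit. Gja1, Pam, Mme, Gnas and Prkar2b were named after their values were seen. Of 97 listed genes, 90 had a row. The rest, Calca among them, were not analysed here.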

Additional observations from a re-analysis of the deposited data

How the results depend on the processing

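For the 30 member differences, 257 of 270 values under 9 other settings and 338 of 360 values with 1 array left out kept their direction and side of the threshold. Adm kept its calls in col minus cap LEC (adjusted p at most 0.00171) and col LEC minus BEC (at most 0.000211) in all 21 alternatives. In col minus pre-col LEC it lost its call only when the 2 groups compared were fitted (1.18, adjusted p = 0.142, so 0 members called). The same setting left 0 members called in cap LEC minus BEC (Ramp3 at -0.37). Against BEC, array weights brought calls of Calcrl (0.32 in cap and 0.34 in col LEC) and Ramp1 (-0.36 and -0.34), 3 members in each. Ramp1 was also called in cap LEC when genes had to exceed the array median on all 12 arrays and with a trended, robust prior (-0.36, 2 members each), and in col LEC after cyclic loess (-0.31, 2 members). Signs turned only for differences near 0 that were not called: Ramp1 in col minus cap LEC after cyclic loess (-0.027) and quantile normalization (-0.021), Calcrl in pre-col minus cap LEC after quantile normalization (0.0024) and Ramp3 in col minus pre-col LEC with array weights (0.010).

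With 1 array left out, the ranges were -0.030 to 0.051 (Calcrl) and -0.025 to 0.079 (Ramp1) in col minus cap LEC, and -0.094 to 0.014 (Ramp2) and -0.060 to 0.022 (Ramp3) in col minus pre-col LEC. In cap LEC minus BEC they were 0.19 to 0.45 (Calcrl), -0.50 to -0.23 (Ramp1), -0.11 to 0.068 (Ramp2) and -0.43 to -0.28 (Ramp3), with 0 to 3 members called. In pre-col LEC minus BEC they were 0.29 to 0.57 (Adm), 0.15 to 0.41 (Calcrl) and -0.43 to -0.15 (Ramp1), with 0 to 2 called. In col LEC minus BEC they were 0.20 to 0.46 (Calcrl) and -0.48 to -0.21 (Ramp1), with 1 to 3 called. The cause was not tested.

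The labels state no pairing by replicate number, and the main fit used none. Same-numbered arrays correlated at -0.094 to 0.209 in their deviations from group means, over 0.1 in 7 of 18 pairs. All 9 pairs between LEC groups correlated best with their own number, against 5 of 9 between LEC and BEC. Samples of the LEC groups may thus be paired, which these weak correlations cannot settle. With the replicate number as a block, Adm in col minus cap LEC was 1.79 (adjusted p = 0.000453) and no member call changed. The block called 3 genes of all tested in pre-col minus cap LEC in place of 0, cyclic loess 10 and array weights 28. In col minus cap LEC 322 genes were called, 792 with array weights and 180 to 351 with 1 array left out. In col minus pre-col LEC 59 were called, 5 with only the 2 groups fitted, 153 with array weights and 24 to 63 with 1 array left out. Of 77 calls of named listed genes other than the members, 59 held in every alternative.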

Other observations

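The other class B receptors, the family of hormone receptors to which Calcrl belongs and some of which also pair with RAMPs, were dim and differed from BEC by small amounts. All 11 tested were below 0 in cap LEC minus BEC, by -0.41 to -0.12 with a median of -0.26, and 3 passed limma's test: Adcyap1r1, the receptor for the peptide PACAP (-0.41 ± 0.07, adjusted p = 0.00155), Pth1r, the parathyroid hormone receptor (-0.35 ± 0.08, adjusted p = 0.00969, and 0.059 with only these groups fitted), and Ghrhr, the receptor for growth hormone-releasing hormone (-0.26 ± 0.08, adjusted p = 0.0404), which lost its call in 15 of 21 alternative fits (highest adjusted p = 0.164, after cyclic loess). Adcyap1r1 was also lower in pre-col LEC (-0.26, adjusted p = 0.0312) and col LEC (-0.29, adjusted p = 0.0176), calls lost in 6 and 4 of 21 fits. It was the 1 gene of 11 called in each of those comparisons. The list ranged from -0.26 to -0.067 in pre-col LEC minus BEC and from -0.29 to 0.11, with 1 of 11 above 0, in col LEC minus BEC. The shares of all genes called were 20.7% for cap, 15.5% for pre-col and 16.2% for col LEC against BEC. After cyclic loess between arrays the list median in cap LEC minus BEC was -0.18 with all 11 still below 0.

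In col minus cap LEC all 11 lay above 0 (0.047 to 0.28, median 0.095, against a median of 0.026 over all genes). Of the 11, 0 were called, against 1.64% of all genes. After cyclic loess 10 of 11 lay above 0, with a median of 0.057 against -0.0012 over all genes. Whether other dim genes share this sign was not tested.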
